A study of Mus musculus with 6 samples.

Results

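Nwd2, Rprml, Ptk2b, Atp1b1 and Arpp21 are 5 neuronal genes whose transcripts were lower in the cortex of Csmd3-knockout mouse embryos than in wild type. They were matched by gene symbol in the table of 55401 gene rows, of which 19844 passed the filter on low counts and were compared, and all 5 passed it. The 5 were chosen by their lower counts in these same knockout and WT libraries, so their levels and differences are given here as a description without a test, and support nothing by themselves. Cortical RNA was sequenced in bulk at embryonic day 18 from 3 libraries labelled Csmd3 knockout (Csmd3-/-) and 3 libraries labelled WT. All embryos were of the C57BL/6 strain and came from matings between heterozygous parents, and no other allele or agent is named. The labels name neither the part of Csmd3 that was removed nor whether the libraries of a group came from separate embryos, so p-values measure only the spread between these libraries, which may be technical.

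The 5 genes sit at different points of neuronal physiology. Nwd2 encodes a protein with a NACHT domain, a nucleotide-binding module, and WD repeats. Rprml encodes Reprimo-like, a small membrane protein related to Reprimo, which is a p53 target that can arrest the cell cycle. Ptk2b encodes Pyk2, a tyrosine kinase of the focal adhesion kinase family that responds to calcium and is abundant in the forebrain. Atp1b1 encodes the beta1 subunit of the sodium-potassium pump, which the catalytic alpha subunit needs in order to mature and reach the membrane; the pump keeps the ion gradients on which neuronal firing depends. Arpp21 encodes a phosphoprotein regulated by cAMP that was first described in the striatum and whose long form binds RNA, and an intron of the gene carries the microRNA gene Mir128-2.

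The promoters are shown because the 5 genes were lower together and their start regions are unlike in base composition. RefSeq windows on GRCm38.p6, the assembly of mm10, run from 250 bases before to 50 bases after a start site and were found for 4 of the 5 genes, with 9 alternative windows for Arpp21; Ptk2b was not matched. Capitals mark matches on either strand to the GC box (GGGCGG), the CCAAT box (CCAAT), the TATA box (TATAAA), an E-box used by neurogenic factors (CAGATG), a further E-box (CAGCTG) and the cAMP response element (TGACGTCA), and neighbouring GC boxes may share letters. Each line reads 5′ to 3′ on the strand of the gene.
Nwd2, chr5:63648853-63649152, plus strand: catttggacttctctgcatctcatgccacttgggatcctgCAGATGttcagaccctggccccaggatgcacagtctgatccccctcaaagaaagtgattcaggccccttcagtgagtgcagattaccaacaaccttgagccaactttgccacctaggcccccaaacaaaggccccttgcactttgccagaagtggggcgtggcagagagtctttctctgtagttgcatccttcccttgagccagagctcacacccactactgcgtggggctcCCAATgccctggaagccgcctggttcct
Rprml, chr11:103649259-103649558, plus strand: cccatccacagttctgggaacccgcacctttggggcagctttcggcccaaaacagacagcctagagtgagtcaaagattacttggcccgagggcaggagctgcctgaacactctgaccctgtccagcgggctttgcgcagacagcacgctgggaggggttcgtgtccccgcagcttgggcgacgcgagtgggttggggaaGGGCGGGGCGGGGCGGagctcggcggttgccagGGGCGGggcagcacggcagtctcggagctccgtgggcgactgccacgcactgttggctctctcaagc
Atp1b1, chr1:164458306-164458605, minus strand: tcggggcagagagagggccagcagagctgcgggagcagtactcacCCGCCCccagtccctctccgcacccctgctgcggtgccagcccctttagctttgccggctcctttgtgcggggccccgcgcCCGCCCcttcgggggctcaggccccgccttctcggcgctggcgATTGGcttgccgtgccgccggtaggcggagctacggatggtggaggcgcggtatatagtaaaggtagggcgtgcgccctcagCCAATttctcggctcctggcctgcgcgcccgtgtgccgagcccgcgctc

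The Rprml and Atp1b1 windows were rich in CpG, with 22 and 31 CpG dinucleotides and observed-to-expected ratios of 0.68 and 0.82, whereas that of Nwd2 held 3 CpG at a ratio of 0.13. The median ratio over all 32851 windows of this length was 0.38. GC boxes numbered 4 in the Rprml window and 2 in that of Atp1b1, and 35.7% of all windows held at least 1. The Nwd2 window held 1 CAGATG E-box, a motif found in 17.2% of all windows, and 1 CCAAT box, found in 37.4%, while the CAGCTG E-box, in 16.3% of windows, was matched only in windows of Arpp21. Neither the cAMP response element (1.79% of windows) nor the TATA box (13.6%) was spelled out in any window of the 4 genes, and no listed motif was common to all 3 printed windows. These matches describe the letters only. The microRNA in the Arpp21 intron is shown with its seed, bases 2 to 8, in capitals, because the mature 3p sequence (chr9:112118644-112118664, minus strand) is the same as that from Mir128-1 on chromosome 1.
mmu-miR-128-3p: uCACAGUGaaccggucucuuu
mmu-miR-128-2-5p: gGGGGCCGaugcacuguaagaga

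Deposited totals were 54244288 to 68269607 estimated counts in the knockout libraries and 57531791 to 60716370 in the WT libraries, and 1 sequenced fragment appears to add about 4 counts. Levels below are CPM, the count divided by the TMM-adjusted library total and multiplied by 1000000; TMM scaling assumes that most genes do not differ. Csmd3 itself was at 9.98 ± 0.294 CPM in knockout and 15 ± 1.72 CPM in WT (SD, n = 3 each; log2 difference -0.59, SE 0.13, adjusted p = 0.0233), a fall whose call ended without WT library 1 (adjusted p = 0.0826) or without knockout library 1 (0.0905), 2 (0.0741) or 3 (0.101), and with the replicate number as a block (0.0664). It checks the labels only weakly, since the removed part is not named and reads from any remaining exons would still be counted. Over all genes 1033 (5.21%) were higher and 503 (2.53%) lower in knockout at an adjusted p under 0.05 by edgeR's quasi-likelihood test, or 7.74% in either direction. All 5 genes stood among the 503, which follows from how they were chosen, and nothing is read from it.

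Nwd2 showed the largest difference of the 5. It was at 8.66, 6.46 and 6.12 CPM in knockout libraries 1, 2 and 3, against 37.1, 29.3 and 26.9 CPM in WT libraries 1, 2 and 3. The highest knockout library lay far below the lowest WT library, by 1.64 on the log2 scale. For all 5 genes every knockout library was below every WT library, a pattern that 13.5% of all tested genes had and that the choice of the 5 favoured. The fitted log2 difference was -2.13 (SE 0.17), so that the knockout level was 22.8% of WT. Among the 503 lower genes, ordered by the size of the fall, Nwd2 ranked 15, and 6 among the 488 with a mean of at least 1 CPM. The gene lies on chromosome 5 (63649102 to 63810546, plus strand, GENCODE M21 on mm10), and 1219 bases of its exons, 11.7% of them, are shared with Gm9954, a transcript of uncertain status on the opposite strand. How the counting treated strand is not stated, so reads in that stretch cannot be told apart. Gm9954 was counted at 2.32 ± 0.753 CPM in knockout and 6.94 ± 1.24 CPM in WT (SD, n = 3 each; log2 difference -1.58, SE 0.26, adjusted p = 0.00737).

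Rprml had the lowest level in counts and the least even WT group. It was at 1.56, 1.83 and 1.39 CPM in the knockout libraries, against 4.76, 5.17 and 2.29 CPM in the WT libraries. WT library 3 was low and lay only 0.32 on the log2 scale above the highest knockout library, although the groups did not overlap. The log2 difference was -1.35 (SE 0.31), or 39.2% of WT, and became -1.64 without WT library 3 and -1.14 without WT library 2. Rprml was no longer among the lower genes when any 1 library other than WT 3 was left out, without knockout libraries 2 and 3, or with limma-voom. The smallest count, 77 in knockout library 3, corresponds to about 19.2 fragments, so counting error weighs more here than in the other 4 genes. Rprml is a gene of 1 exon and 1010 bases on chromosome 11 (103649570 to 103650579, plus strand). No annotated gene overlaps it.

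Ptk2b was at 17, 16.9 and 19.7 CPM in the knockout libraries, against 33, 37.3 and 34 CPM in the WT libraries. The libraries of each group lay close together, with coefficients of variation of 8.8% in knockout and 6.45% in WT, and the groups were well separated. The log2 difference was -0.96 (SE 0.11), or 51.4% of WT. Ptk2b spans chromosome 14 from 66153257 to 66281052 on the minus strand and overlaps no other annotated gene.

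Atp1b1 and Arpp21 were alike in size of difference, and both were the most abundant of the 5 in CPM. Atp1b1 was at 60.1, 59.2 and 62.4 CPM in the knockout libraries, against 102, 106 and 91.8 CPM in the WT libraries, a log2 difference of -0.72 (SE 0.08) and 60.8% of WT. Arpp21 was at 69.6, 66.3 and 75.8 CPM in the knockout libraries, against 122, 112 and 113 CPM in the WT libraries, a log2 difference of -0.71 (SE 0.08) and 61.1% of WT. Neither pair of groups overlapped, and the distance between the lowest WT and the highest knockout library was 0.56 on the log2 scale for both. These differences were closer to the median of the 503 lower genes (-0.58) than those of the other 3, with ranks of 168 and 170 by size, so that "strong" describes them less well than Nwd2. Atp1b1 (chromosome 1, 164437109 to 164458355, minus strand) shares 575 exon bases, 18.7%, with Nme7 on the opposite strand, which was at 20.2 ± 1.59 CPM in knockout and 20.5 ± 2.52 CPM in WT (SD, n = 3 each; log2 difference -0.02, adjusted p = 0.941). Arpp21 (chromosome 9, 112065091 to 112235938, minus strand) shares 580 exon bases, 3.33%, with the long non-coding gene 2900079G21Rik on the opposite strand, which was at 14.1 ± 0.488 CPM in knockout and 19.3 ± 0.815 CPM in WT (log2 difference -0.46, SE 0.10, adjusted p = 0.0285). The row of Mir128-2 held 0, 0 and 2 counts in knockout and 0 in every WT library, too few to say anything of the microRNA.

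**Figure D1:**
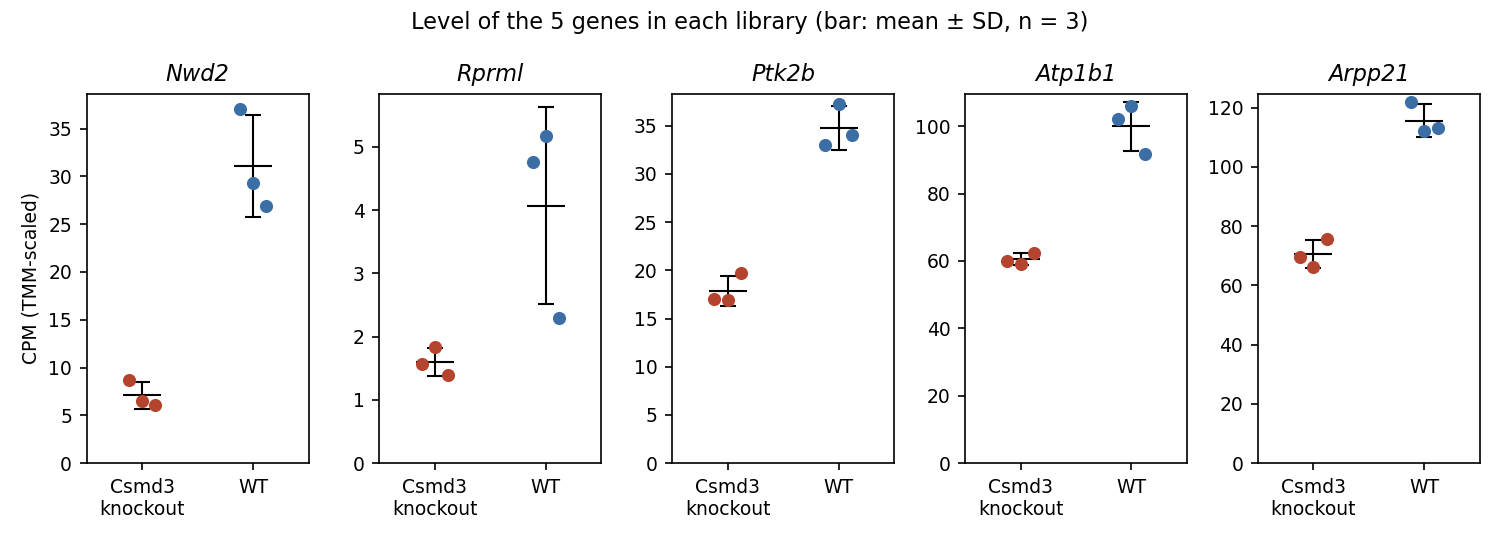
Level of each of the 5 genes in CPM (vertical axis, from 0) by library, knockout left and WT right, with points for libraries and bars for mean ± SD (n = 3). No knockout point reaches a WT point, and the narrowest gap is that of Rprml, between 1.83 CPM in knockout library 2 and 2.29 CPM in WT library 3.

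Per kilobase of exon the order of the 5 genes was the same in both groups. Atp1b1 led with 19.6 ± 0.538 RPKM in knockout and 32.3 ± 2.3 RPKM in WT (SD, n = 3 each), where RPKM is the CPM divided by the length in kilobases of all annotated exons merged. Arpp21 followed with 4.05 ± 0.276 RPKM in knockout and 6.62 ± 0.313 RPKM in WT, and Ptk2b with 2.42 ± 0.213 RPKM in knockout and 4.7 ± 0.303 RPKM in WT. Rprml had 1.58 ± 0.222 RPKM in knockout and 4.03 ± 1.54 RPKM in WT, and Nwd2 had 0.679 ± 0.132 RPKM in knockout and 2.98 ± 0.51 RPKM in WT. In knockout no neighbours in this order overlapped between libraries. In WT, Rprml (2.26 to 5.12 RPKM) overlapped both Ptk2b (4.46 to 5.04) and Nwd2 (2.58 to 3.56), so its place there is not settled by these libraries. Arpp21 has 31 annotated transcripts and 17428 merged exon bases, which lowers its value against a gene of few transcripts such as Atp1b1 (4 transcripts, 3081 bases).

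The spread among libraries differed between the genes. In knockout, Nwd2 was highest in library 1 and Ptk2b, Atp1b1 and Arpp21 in library 3, while in WT Nwd2 and Arpp21 were highest in library 1 and Rprml, Ptk2b and Atp1b1 in library 2. Over the 6 libraries, the profiles of Atp1b1 and Arpp21 (log2 CPM centred on the WT mean) lay at a root mean square distance of 0.076, the smallest of the 10 pairs, and those of Nwd2 and Arpp21 at 1.028, the largest. The same distance was used to find the most similar of 11301 other protein-coding genes with a mean of at least 5 CPM. Nwd2 was nearest to Cntn6 (0.286; log2 difference -1.84), a cell adhesion molecule of the contactin family, followed by Snhg11 (0.447) and Olig1 (0.567). Rprml was nearest to Adcy8 (0.119; log2 difference -1.29), a calcium-stimulated adenylyl cyclase, then to the metabotropic glutamate receptor gene Grm7 (0.160) and to Olig2 (0.232). Ptk2b was nearest to Chsy3 (0.109), Pla2g4e (0.118) and Smtnl2 (0.119). Atp1b1 had Fam19a2 (0.055), Prrt4 (0.063) and the neuronal calcium sensor gene Ncald (0.068) as its nearest genes, and Arpp21 had Serpine2, Usp43 and the netrin receptor gene Unc5c (0.075 each). These neighbours in pattern were chosen for their likeness and carry no test.

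Some transcripts shared by neurons in general were lower as well. Of 20 pan-neuronal genes 7 fell and 0 rose by edgeR (12 lower and 1 higher at an unadjusted p under 0.05; DESeq2 called 9 lower and 1 higher, limma-voom 7 and 0), where 2.53% of all genes fell and 5.21% rose, and 13 did not pass. Their median log2 difference was -0.26, against 0.00 over all tested genes. The median of the 20 genes stood at -0.28, -0.28 and -0.29 in knockout libraries 1, 2 and 3, against 0.07, 0.03 and -0.11 in WT libraries 1, 2 and 3, on a log2 scale centred on WT. In bulk tissue, fewer cells of a type and less RNA per cell cannot be told apart. When each library was scaled to these genes, the difference between knockout and WT in mean log2 CPM became -1.85 for Nwd2, -0.98 for Rprml, -0.68 for Ptk2b, -0.44 for Atp1b1 and -0.43 for Arpp21. The groups of each gene did not overlap under this scaling either, which the choice of the 5 favoured. The share of all genes with that pattern under this scaling was not computed, so nothing is read from it. Rprml came nearest, with -0.77 in knockout library 2 and -0.62 in WT library 3.

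**Figure D2:**
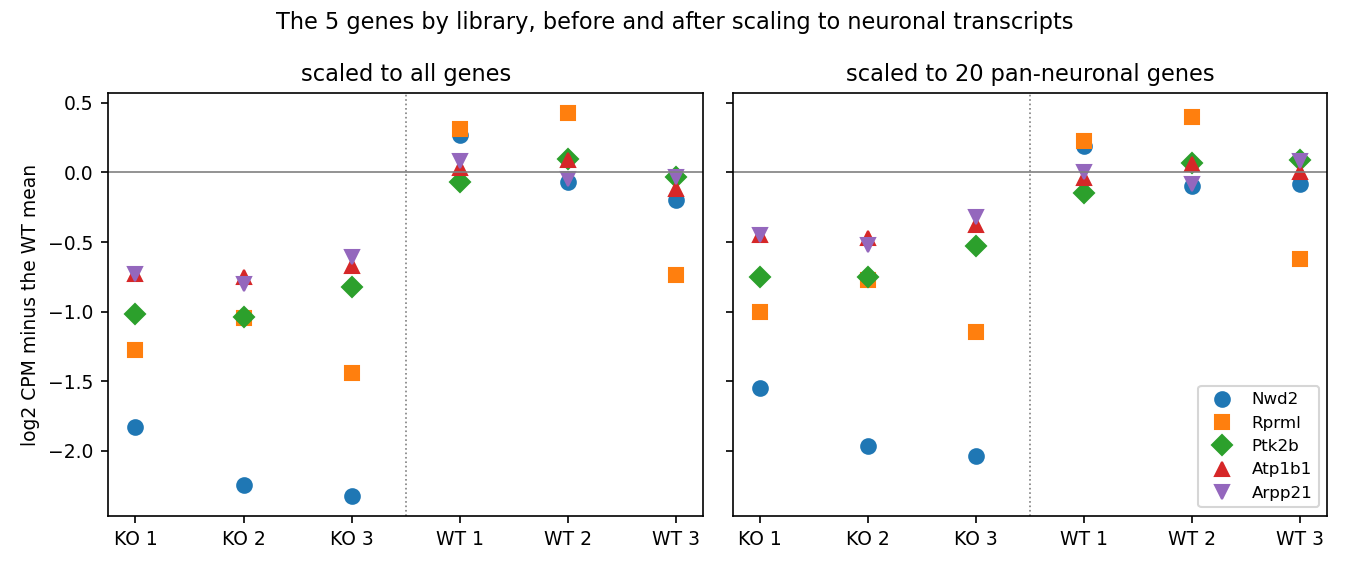
Log2 CPM of the 5 genes minus the WT mean (vertical axis) in each of the 6 libraries (KO, Csmd3 knockout), scaled to all genes on the left and to the median of 20 pan-neuronal genes on the right. The knockout points move up by 0.28 to 0.29 under the second scaling and stay below the WT points of the same gene, which the choice of the 5 favoured.

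Markers of other tissue moved with genotype as well. For the counts below, 5.21% of all genes rose and 2.53% fell. All 14 meningeal markers rose, with a summed level of 576 to 804 CPM in knockout and 24.2 to 31.9 CPM in WT, and none was at 0 in all libraries of a group, though Lum, Cldn11 and Aldh1a2 were each at 0 in 1 WT library. Of 14 microglia and macrophage markers 10 rose (140 to 167 CPM in knockout, 52.3 to 58.7 CPM in WT), of 12 endothelial markers 8 rose (439 to 546 CPM in knockout, 256 to 292 CPM in WT), and of 18 markers of dividing cells 12 rose (1161 to 1173 CPM in knockout, 729 to 895 CPM in WT). Choroid plexus markers were uneven, at 45.5 to 524 CPM in knockout and 6.87 to 7.89 CPM in WT, with Folr1 at 0 in every WT library. Of 8 tested genes 3 were higher, namely Slc13a4, Aqp1 and Enpp2. The other 5, Ttr among them (adjusted p = 0.148), did not pass. Slc13a4 was at 12.1, 6.46 and 6.89 CPM in knockout libraries 1, 2 and 3, an order unlike that of Ttr given below. The part of these tissues in the lower neuronal levels was not tested. The choroid plexus gene Ttr had 131, 2262 and 25057 counts in knockout libraries 1, 2 and 3, against 4, 0 and 0 in WT libraries 1, 2 and 3. In a fit with knockout library 1 as the only knockout, the log2 differences were -1.84 for Nwd2, -1.37 for Rprml, -1.02 for Ptk2b, -0.72 for Atp1b1 and -0.72 for Arpp21. That fit assumes the lone library to vary like the others, and Atp1b1 and Rprml were no longer past the threshold in it. Knockout library 1 also had the highest summed meningeal level of the knockout libraries (804 CPM), so it is not free of other tissue.

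Markers of neighbouring forebrain regions bear on Arpp21 and Ptk2b, which are also known from striatum and hippocampus. The counts here stand beside 5.21% of all genes higher and 2.53% lower. Of 14 striatal markers 3 rose and 1 fell (median 0.14), with summed levels of 216 to 225 CPM in knockout and 199 to 223 CPM in WT. Of 8 tested hippocampal markers 1 rose and 1 fell (median -0.32), at 139 to 200 CPM in knockout and 130 to 235 CPM in WT. Of 7 tested thalamic markers 1 fell (median 0.13), at 115 to 119 CPM in knockout and 104 to 119 CPM in WT, with Gbx2 and Shox2 at 0 in knockout and Shox2 at 0 in WT. The ranges of each of these 3 lists overlapped between the groups. Defining genes of cortical projection neurons were present in every library, with none at 0: their sum was 4193 to 4715 CPM in knockout and 3827 to 4365 CPM in WT, and 1 of 12, Cux2 of upper layers, fell (median 0.03). Of 12 interneuron markers 2 fell (372 to 470 CPM in knockout, 446 to 567 CPM in WT), of 12 radial glia markers 3 rose (2011 to 2250 CPM in knockout, 2056 to 2102 CPM in WT), and of 9 tested oligodendrocyte markers 1 rose and 3 fell (121 to 140 CPM in knockout, 134 to 168 CPM in WT, Opalin at 0 in WT). None of 8 erythroid markers passed by edgeR, DESeq2 or limma-voom, and 1 was higher at an unadjusted p under 0.05 (1886 to 2203 CPM in knockout, 1520 to 2106 CPM in WT).

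Of the other beta subunits of the sodium-potassium pump, Atp1b3 rose, with 60 ± 3.23 CPM in knockout and 47.5 ± 0.774 CPM in WT (SD, n = 3 each; log2 difference 0.34, SE 0.08, adjusted p = 0.0265). Atp1b2 was at 63 ± 2.12 CPM in knockout and 64.6 ± 6 CPM in WT (-0.04, SE 0.09, adjusted p = 0.856). Of 14 tested genes of the pump other than Atp1b1, 3 rose and 2 fell (median -0.09), where 5.21% of all genes rose and 2.53% fell. Among them Fxyd5, a regulator of the pump, rose (1.46, SE 0.32, adjusted p = 0.0239), and Fxyd6, which was named after its value was seen, fell (-0.33, SE 0.07, adjusted p = 0.0166). With 1 library left out, the calls of Atp1b3 (any but WT 3, adjusted p up to 0.122), Fxyd5 (knockout 1 or 3 or WT 1, up to 0.0977) and Fxyd6 (any knockout library, up to 0.0923) ended. The replicate block ended those of Atp1b3 (0.0706) and Fxyd5 (0.065).

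Among the beta subunit transcripts the balance was different in the 2 groups. Atp1b1 made up 31.4%, 32.6% and 34.1% of the summed level per kilobase of Atp1b1, Atp1b2 and Atp1b3 in knockout libraries 1, 2 and 3, against 47.4%, 49.9% and 45.3% in WT libraries 1, 2 and 3. Atp1b3 made up 42.9%, 41.8% and 40.5% in the knockout libraries, against 28%, 29.3% and 30.3% in the WT libraries. Atp1b1 was therefore the leading beta transcript per kilobase in each WT library and Atp1b3 in each knockout library. These shares hold Atp1b1, which was chosen for its difference, and are a description.

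**Figure D3:**
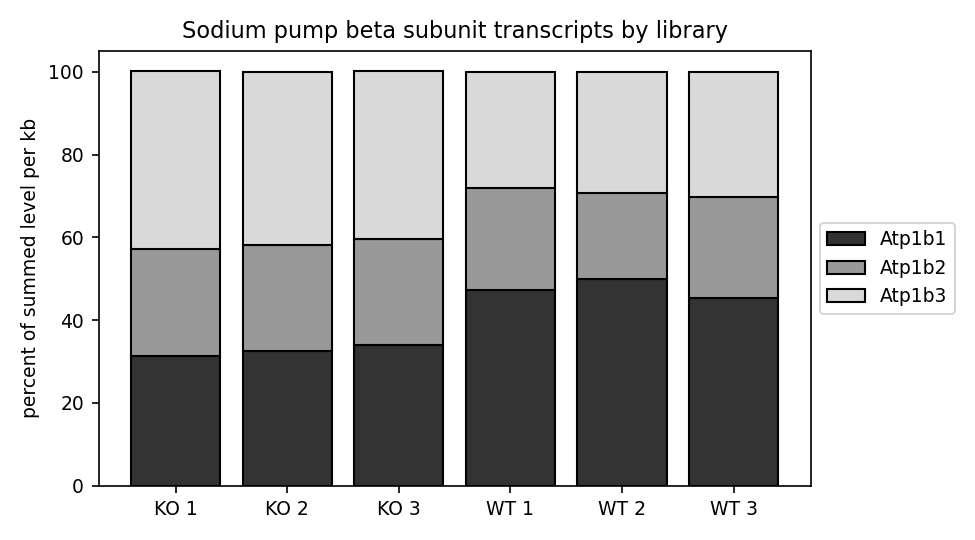
Share of the summed level per kilobase (vertical axis, percent) taken by Atp1b1, Atp1b2 and Atp1b3 in each library (KO, Csmd3 knockout). Atp1b1 takes 31.4% to 34.1% in knockout and 45.3% to 49.9% in WT, and Atp1b2 stays between 20.8% and 25.8% in all 6.

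Calcium carriers were taken as a list too. Of 13 calcium pumps and exchangers 1 fell and 0 rose by edgeR (3 lower and 0 higher at an unadjusted p under 0.05; DESeq2 1 lower, limma-voom 0), with a median of -0.14, and 7.74% of all genes passed in either direction, so the share is near that of genes in general. The gene that fell was the potassium-dependent exchanger Slc24a3 (-0.90, SE 0.22, adjusted p = 0.0406), a call that ended without any 1 library but WT 2 (adjusted p up to 0.149) and with limma-voom (0.0648). The 2 most abundant genes of the list, Atp2a2 of the endoplasmic reticulum (-0.06, SE 0.07, adjusted p = 0.709) and the sodium-calcium exchanger Slc8a1 (-0.14, SE 0.08, adjusted p = 0.381), did not pass.

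Ptk2, the focal adhesion kinase and only close relative of Pyk2, was at 168 ± 4.21 CPM in knockout and 167 ± 5.66 CPM in WT (SD, n = 3 each; log2 difference 0.01, SE 0.06, adjusted p = 0.937). Per kilobase it exceeded Ptk2b in both groups, at 14.3 ± 0.357 RPKM in knockout and 14.1 ± 0.479 RPKM in WT. Of 27 relatives and partners of the kinase 2 rose and 1 fell (median 0.08). Over all genes 5.21% rose and 2.53% fell, so the shares are near those of genes in general. The adaptor gene Shc1 (1.02, SE 0.12, adjusted p = 0.00118) and Tgfb1i1, which encodes Hic-5, a paxillin relative (0.91, SE 0.15, adjusted p = 0.00831), were the higher ones. Both are also known from mesenchymal cells. Meningeal markers rose as given above, and a link between them and these 2 genes was not tested. Pitpnm1, which encodes a phosphatidylinositol transfer protein that binds Pyk2, fell (-0.57, SE 0.10, adjusted p = 0.0116), a call that ended without knockout library 2 (adjusted p = 0.0502) or 3 (0.0524).

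Since Pyk2 responds to calcium, genes of calcium and protein kinase C signalling were tested as a list. Of 22, 3 fell and 0 rose by edgeR, with a median of -0.18, where 2.53% of all genes fell and 5.21% rose. At an unadjusted p under 0.05, 7 were lower and 0 higher, and DESeq2 called 4 lower and limma-voom 3. Among those that fell was the metabotropic glutamate receptor gene Grm5, with 43.1 ± 3.04 CPM in knockout and 68 ± 10 CPM in WT (SD, n = 3 each; -0.66, SE 0.11, adjusted p = 0.00846). Its call held with each library left out.

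Neither Arpp19, grouped here with Arpp21 as a cAMP-regulated phosphoprotein, nor the relative R3hdm1 passed the test. Arpp19, a small phosphoprotein that inhibits a phosphatase, was at 99.9 ± 3.47 CPM in knockout and 95.9 ± 19.3 CPM in WT (SD, n = 3 each; 0.06, SE 0.13, adjusted p = 0.853). R3hdm1, a relative with the same R3H nucleic acid-binding domain that hosts Mir128-1, was at 185 ± 7.61 CPM in knockout and 187 ± 12.8 CPM in WT (-0.01, SE 0.07, adjusted p = 0.941). Of 13 genes of cAMP-regulated phosphoproteins, R3H proteins and protein kinase A, 3 were lower and 1 higher at an unadjusted p under 0.05. DESeq2 called 2 lower and limma-voom 1, and the list median was -0.09. Over all genes 2.53% fell and 5.21% rose by edgeR. Of the 13, 0 rose and 1 fell by that test. It was Prkar1b, the regulatory subunit of protein kinase A that is typical of neurons, with 170 ± 6.71 CPM in knockout and 254 ± 24.7 CPM in WT (-0.58, SE 0.08, adjusted p = 0.00314), a call that held with each library left out. Prkar1a (-0.10, SE 0.06, adjusted p = 0.40) and Prkacb (-0.38, SE 0.35, adjusted p = 0.623) did not pass.

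A list of translation factor genes of the Eif4 series, some of whose products ARPP21 is reported to contact, was also taken. Of its 12 genes 0 passed by edgeR, DESeq2 and limma-voom alike, and 0 at an unadjusted p under 0.05 (median 0.01). Eif4g2 was at 0.06 (SE 0.06) and Eif4a1 at 0.01 (SE 0.07). Of 8 reported miR-128 targets 0 passed by edgeR, DESeq2 or limma-voom, and 1 was higher at an unadjusted p under 0.05 (median 0.09). Among them Dcx, the doublecortin gene of young neurons, was at 0.03 (SE 0.09, adjusted p = 0.886) and Reln, which encodes reelin, at -0.40 (SE 0.27, adjusted p = 0.486).

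Rprm, the gene of Reprimo itself, was far more abundant than Rprml per kilobase, at 98 ± 4.74 RPKM in knockout and 126 ± 16.9 RPKM in WT. Its log2 difference of -0.36 (SE 0.10, adjusted p = 0.0502) just missed the threshold, and it passed under RLE scaling (0.0463), without a filter on low counts (0.0402), with a filter at 1 CPM (0.0427), with counts divided by 4 (0.0348), with DESeq2 (0.0112) and without WT library 3 (0.0396). Of 18 genes of Reprimo and p53 targets, with a median of 0.11, 4 were higher and 2 lower at an unadjusted p under 0.05. DESeq2 called 2 higher and 1 lower, and limma-voom 1 and 0. By edgeR 1 rose and 0 fell, where 5.21% of all genes rose and 2.53% fell, so the share is near that of genes in general. The gene that rose was Btg2, an antiproliferative gene of neurogenic progenitors (0.61, SE 0.11, adjusted p = 0.0113). Trp53inp1 was at 0.42 (SE 0.11, adjusted p = 0.0501).

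Nwd1, the nearest relative of Nwd2, was at 23.5 ± 2.67 CPM in knockout and 24.1 ± 1.63 CPM in WT (SD, n = 3 each; -0.04, SE 0.12, adjusted p = 0.887). None of the 3 relatives with NACHT or related ATPase domains and WD repeats passed by edgeR or limma-voom, 1 was higher by DESeq2 and 1 at an unadjusted p under 0.05. Apaf1, the apoptosome scaffold, was at -0.15 (SE 0.14, adjusted p = 0.62). Per kilobase, Nwd2 stood below Nwd1 in knockout (0.679 ± 0.132 against 1.94 ± 0.221 RPKM), and in WT it stood above it (2.98 ± 0.51 against 2 ± 0.135 RPKM).

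**Figure D4:**
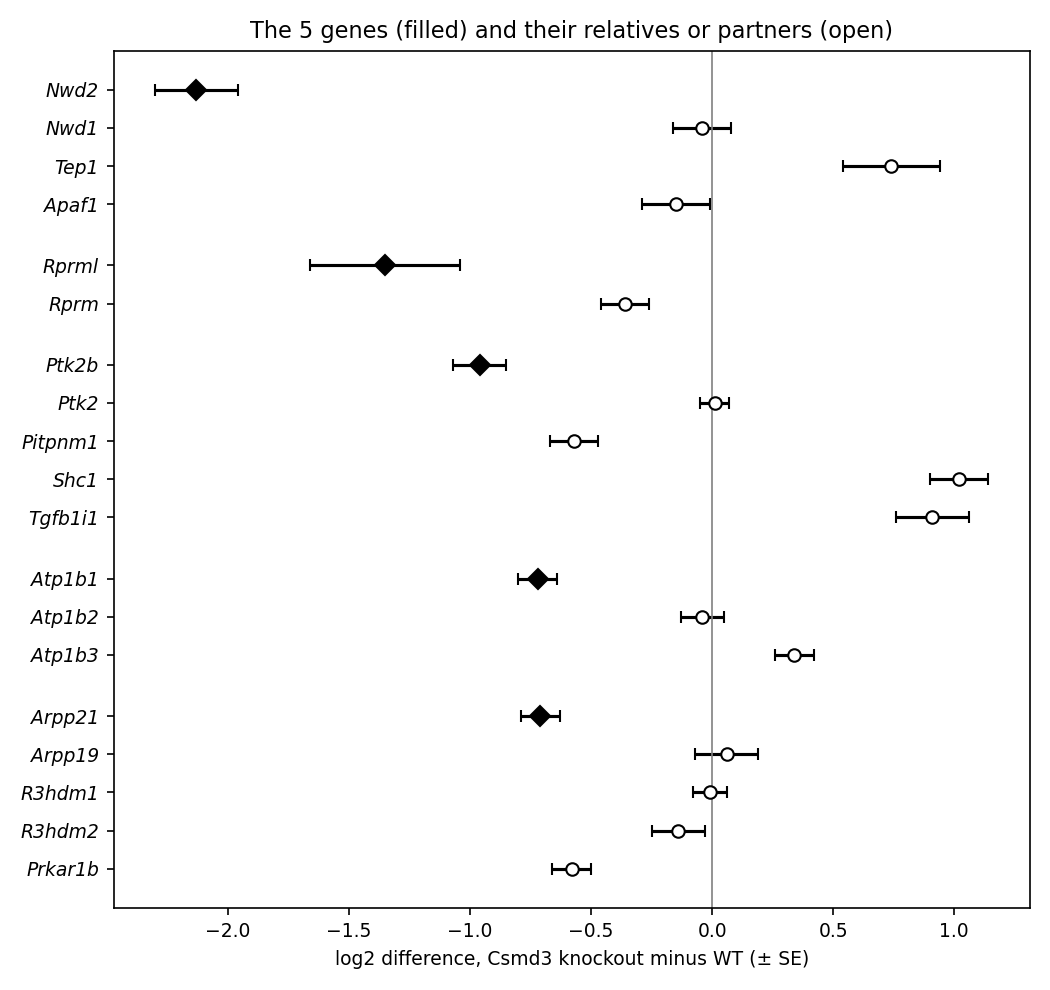
Log2 difference between Csmd3 knockout and WT (horizontal axis, bars ± SE). Filled diamonds are the 5 genes, and open circles are relatives, partners or genes grouped with each. Each of the 5 lies below 0. The close relatives Nwd1, Ptk2, Atp1b2 and R3hdm1, and the grouped phosphoprotein gene Arpp19, lie between -0.04 and 0.06 and did not pass. Rprm lies at -0.36 and just missed the threshold, and Atp1b3 lies at 0.34 and passed.

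Other neuronal genes known to rise late in cortical development were described as a list of 42 that leaves out the 5 genes. Of these, 18 fell and 0 rose by edgeR, against 2.53% of all genes lower by that test, and the median was -0.47. DESeq2 called 22 of the 42 lower, where it called 928 lower over all genes, and limma-voom 16, where it called 385. At an unadjusted p under 0.05, 24 were lower and 0 higher, with no share of all genes taken at that cut. The list was written with earlier results of these data known, some of its members included, so the count is not independent support. It also shares 3 genes with the pan-neuronal list. The largest falls were in Nrgn, which encodes neurogranin (-1.44, SE 0.29, adjusted p = 0.0257), the GABA receptor subunit gene Gabra5 (-1.17, SE 0.15, adjusted p = 0.00192) and the NMDA receptor subunit gene Grin2a (-1.11, SE 0.28, adjusted p = 0.0419). Nwd2 (-2.13) lay beyond all 42, whereas 12 of the 42 lay beyond Atp1b1. Among the 12, Hpcal4 (-0.74, SE 1.31, adjusted p = 0.812) and Rasgrp1 (-0.72, SE 0.50, adjusted p = 0.464) were uneven between libraries and did not pass. The rest of the 12 passed. The number that fell was 11, 10 and 11 without knockout library 1, 2 or 3 and 14, 13 and 21 without WT library 1, 2 or 3, and Nrgn and Grin2a lost their calls without any 1 library but WT 3 (adjusted p up to 0.0952 for Nrgn and 0.142 for Grin2a) and with the replicate block (0.0667 for Nrgn and 0.113 for Grin2a), and Grin2a also with limma-voom (0.0761), while Gabra5 kept its own. With knockout library 1 as the only knockout 0 of 42 passed.

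Genes of young neurons just after their last division formed another list, which shares 2 genes with the pan-neuronal list. Of 20, 2 fell and 0 rose by edgeR (6 lower and 2 higher at an unadjusted p under 0.05; DESeq2 3 lower and 1 higher, limma-voom 2 and 0), with a median of 0.01, where 2.53% of all genes fell and 5.21% rose. The tubulin genes Tubb3 (-0.42, SE 0.09, adjusted p = 0.018) and Tubb2b (-0.37, SE 0.07, adjusted p = 0.0144) fell, calls that ended without any knockout library and, for Tubb3, also without WT library 1 (adjusted p up to 0.0983 and 0.0841). The growth cone gene Dpysl3 was at -0.20 (SE 0.06, adjusted p = 0.0953). The difference between this list and the late-rising one was not tested. With a single age in the data, whether the 5 genes themselves are late genes cannot be checked here.

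**Figure D5:**
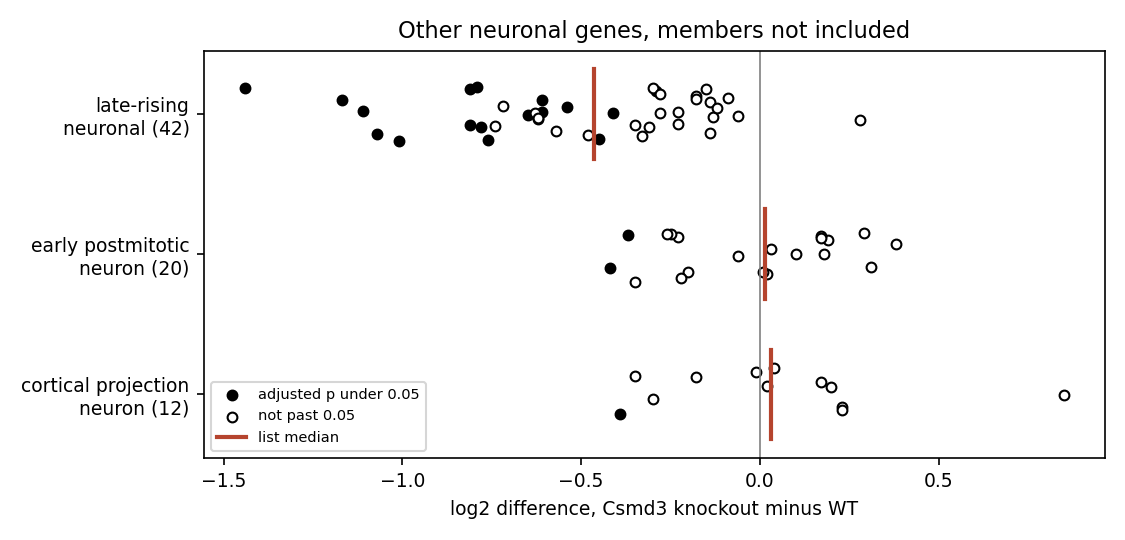
Log2 difference between Csmd3 knockout and WT (horizontal axis) of each tested gene in 3 lists that leave out the 5 genes, filled where the adjusted p is under 0.05, with the list median as a bar. Medians are -0.47 for 42 late-rising neuronal genes, 0.01 for 20 genes of young neurons and 0.03 for 12 markers of cortical projection neurons. Some genes are drawn in more than 1 list: Neurod2, Neurod6 and Tbr1 with young and with projection neurons, and Slc17a7 with late-rising genes and with projection neurons.

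Genes next to the 5 on their chromosomes were also examined. Within 500 kb of the starts of the 5 genes, 29 protein-coding genes were tested, of which 2 rose and 4 fell (median -0.02), where 5.21% of all genes rose and 2.53% fell. None lay that near to Arpp21. Around Atp1b1, 0 of 6 passed by edgeR, DESeq2 or limma-voom, or at an unadjusted p under 0.05. Around Ptk2b, the adrenergic receptor gene Adra1a rose (1.74, SE 0.41, adjusted p = 0.0339), with 1.11 ± 0.327 CPM in knockout and 0.331 ± 0.0531 CPM in WT (SD, n = 3 each), and the stathmin gene Stmn4 fell (-0.60, SE 0.12, adjusted p = 0.0168). Near Rprml, 3 of 11 fell, namely the corticotropin-releasing hormone receptor gene Crhr1 (-0.67, SE 0.15, adjusted p = 0.0277), the formin gene Fmnl1 (-0.56, SE 0.11, adjusted p = 0.0154) and, named after its value was seen, Arf2 (-0.34, SE 0.07, adjusted p = 0.0196). Beside Nwd2, Rell1 rose (0.56, SE 0.15, adjusted p = 0.0482).

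The calls of all 6 of these neighbours ended with some library left out. They were lost without any 1 knockout library for Rell1 (adjusted p up to 0.162), Crhr1 (0.114), Fmnl1 (0.0686) and Arf2 (0.108), without knockout library 1 or 3 for Adra1a (0.151), and without knockout library 1 or 2 for Stmn4 (0.0649). Leaving out a WT library ended them too, namely WT 1 or 2 for Rell1 (0.162) and Crhr1 (0.0985), WT 1 for Stmn4 (0.0638), WT 2 for Fmnl1 (0.0527) and Arf2 (0.0539), and any of the 3 for Adra1a (0.0878). With the replicate block, the calls of Rell1 (0.067), Adra1a (0.0791), Stmn4 (0.0594), Crhr1 (0.0675) and Arf2 (0.0507) were lost as well. Rell1 (0.0512) and Adra1a (0.0711) did not pass with limma-voom, nor Rell1 under RLE scaling (0.0515).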

How the data were processed

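Bulk RNA sequencing of embryonic cortex gave 3 Csmd3-knockout and 3 WT libraries, grouped by their titles. The authors deposited a table of integer counts for genes. These deposited values are taken here as estimated counts, since small values cluster at multiples of 4, and needed no rounding. Build mm10 and the tools HISAT2 2.0.5, StringTie 1.3.4, Trim Galore 0.4.4 and FastQC 0.11.9 are listed, without roles, per the submitters' processing notes. The program that counted, its annotation and its treatment of strand are not stated. Names came from GENCODE M21 for 55141 of 55401 rows, and the unnamed remainder carried no more than 0.0238% of any library's counts.

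After filterByExpr and TMM scaling, genes were tested in edgeR 4.0.16 (robust quasi-likelihood fit, R 4.3.3), with Benjamini-Hochberg adjustment over 19844 genes and a threshold of 0.05. Every adjusted p is from that test unless another is named. Log2 differences are knockout minus WT, and the SE is their size divided by the square root of F. Profiles used log2 CPM with a prior count of 2. The fit was tested on simulated data. The members and the 11 pathway and 14 marker lists were chosen with earlier results of these data known. Named genes were the members, Csmd3, close relatives, Arpp19 and up to 2 called neighbours per member. From each pathway list came the 3 largest called changes with a mean of at least 1 CPM. Where fewer passed, at most 2 abundant genes were added. The alternatives tried were DESeq2 1.42.0, voom of limma 3.58.1, scaling by RLE or upper quartile, other filters, counts divided by 4, a replicate block, left-out libraries and pan-neuronal scaling. Values of some genes that this rule would name are not reported here, though list counts and medians include them.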

Additional observations from a re-analysis of the deposited data

How the results depend on the processing

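Each of the 5 genes was lower in knockout under all 16 alternatives run, between -2.30 and -1.84 for Nwd2, -1.64 and -0.98 for Rprml, -1.03 and -0.68 for Ptk2b, -0.77 and -0.44 for Atp1b1, and -0.76 and -0.43 for Arpp21. The choice of the 5 favoured this sign. With every knockout library below every WT library, the alternatives could hardly reverse it, so the sign supports nothing by itself. With 1 library left out the ranges were -2.30 to -2.0, -1.64 to -1.14, -1.03 to -0.91, -0.77 to -0.68 and -0.76 to -0.66 in that order. Scaling to pan-neuronal genes moved Nwd2 to -1.85, Ptk2b to -0.68, Atp1b1 to -0.44 and Arpp21 to -0.43, by construction, since those genes were themselves lower, and leaving out knockout libraries 2 and 3 moved Nwd2 to -1.84. The counts of called genes depended more on the libraries: with 1 left out, 472 to 1402 genes were higher and 137 to 956 lower, 4 to 13 pathway genes higher and 13 to 37 lower, and 0 to 3 neighbours higher and 0 to 4 lower. Without knockout libraries 2 and 3, 262 genes were higher and 43 lower, with 1 and 0 pathway genes and 0 and 0 neighbours. DESeq2 called 928 lower genes and 4 higher neighbours, limma-voom 0 higher neighbours, and RLE scaling and the filter at 1 CPM 1 each. The cause of these shifts was not tested. Leaving out a library also left fewer samples, yet the largest counts, 1402 higher and 956 lower, came without WT library 3.

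With the replicate number as a block, 686 genes were higher and 255 lower, and 0 neighbours were higher and 1 lower. Same-numbered libraries correlated at 0.028, -0.003 and 0.002 in their deviations from the group means. No shared deviation was seen, but so few libraries cannot show whether the numbers pair the samples. The difference of Nwd2 was -2.14 under the block. Among genes that did not pass, signs turned near 0. With 1 library left out, the ranges were -0.01 to 0.04 for Ptk2, -0.09 to 0.06 for Nwd1, -0.05 to 0.03 for R3hdm1, -0.10 to 0.20 for Arpp19 and -0.11 to 0.01 for Atp1b2, and without knockout libraries 2 and 3 Ptk2 was at -0.02, Nwd1 at 0.07, R3hdm1 at 0.03 and Atp1b2 at 0.03. Depth limits Rprml most, with counts of 77 to 300.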
